A study of Homo sapiens with 12 samples.

Results

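The histone genes were examined in RNA of granulosa cell tumor (GCT) lines treated with or without 77-39, a compound described by the study as a selective inhibitor of the mitochondrial deacetylase SIRT3. Members were all protein-coding genes of the table whose symbol begins with HIST1H, HIST2H, HIST3H or HIST4H (71 clustered genes), and the genes H1F0, H1FX, H2AFX, H2AFZ, H2AFV, H2AFJ, H2AFY, H2AFY2, H3F3A and H3F3B (10 replacement genes), which made 81 of 58735 genes. Untreated and treated cells of the lines KGN and COV434 gave 4 groups of 3 libraries, and the treated cells had received 77-39 for 72 h. The dose on the labels, 10 μm/ml, does not say whether μM or μg/ml was meant, and it stands on the untreated libraries too, which were taken as untreated from their titles. According to the study, KGN comes from an adult-type and COV434 from a juvenile-type GCT, so each type is represented by a single cell line. The genotype label is WT throughout. The labels do not say whether the 3 libraries of a group came from separate cultures, so p-values measure the spread between these libraries, which may be technical.

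Histones are the proteins around which DNA is wound, H2A, H2B, H3 and H4 in the nucleosome core and H1 on the linker DNA. The clustered genes mostly lie close together and have no intron, and they are transcribed chiefly in S phase. Their mRNA ends in a conserved stem-loop in place of a poly(A) tail, which the stem-loop binding protein SLBP recognizes. Some of these genes also give polyadenylated transcripts in cells that differentiate or stop dividing. Most replacement genes stand apart from the clusters, give polyadenylated mRNA through the whole cell cycle and encode variants that enter chromatin outside replication.

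The stem-loop is shown here for 4 clustered genes and 1 replacement gene, because it marks the transcript ends that a library made by poly(A) selection would miss. The stem bases are in capitals, and all come from transcripts of release 29 of GENCODE, the annotation whose GRCh38 coordinates the table carries.
HIST1H2AC: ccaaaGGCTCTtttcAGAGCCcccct
HIST3H2A: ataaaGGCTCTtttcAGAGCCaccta
HIST1H4I: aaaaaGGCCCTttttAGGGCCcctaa
HIST1H4H: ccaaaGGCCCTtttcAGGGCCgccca
H2AFX: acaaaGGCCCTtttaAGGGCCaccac
A stem of 6 bases that opens with GG, a loop of 4 bases that opens with T, and the exact complement were found in 31 of 71 clustered genes and 1 of 10 replacement genes. For comparison, such a stem-loop was found in 2.97% of 19922 protein-coding genes. The only replacement gene among them was H2AFX, whose annotated transcript of 1614 bases goes on for 1044 bases after it. In the transcript of HIST1H2AC, 1128 of 1668 bases lie after the stem-loop.

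The gene models bear on what could be counted. Clustered genes had a length of 297 to 5477 bases in the table, with a median of 509. A stem-loop was annotated in 20 of the 21 clustered genes of 1000 bases or more and in 11 of the 50 shorter ones. Of the 50 shorter models, 39 have a length that is a multiple of 3, as a coding sequence alone would have, though some of these hold a stem-loop. A model that stops at the coding sequence cannot show the stem-loop. Its absence from a model therefore does not mean that the gene lacks it. Close copies are frequent, and 17 of the 71 clustered genes share at least 50% of their stretches of 50 bases with another gene, so that counting could have split their reads. The 55 clustered genes on chromosome 6, 15 on chromosome 1 and 1 on chromosome 12 included 8 with no read in any of the 12 libraries and 22 with fewer than 20 reads in all 12 together.

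The promoters of the H2A genes whose response is described below face an H2B gene on the other strand. Windows of 300 bases are shown for HIST1H2AG, which faces HIST1H2BJ, and for HIST2H2AC, which faces HIST2H2BE (RefSeq, GRCh38.p14, chr6:27132793-27133092 and chr1:149886668-149886967, plus strand). Capitals mark the octamer ATTTGCAT, CCAAT and TATAAA on either strand, and they run together where matches overlap.
HIST1H2AG: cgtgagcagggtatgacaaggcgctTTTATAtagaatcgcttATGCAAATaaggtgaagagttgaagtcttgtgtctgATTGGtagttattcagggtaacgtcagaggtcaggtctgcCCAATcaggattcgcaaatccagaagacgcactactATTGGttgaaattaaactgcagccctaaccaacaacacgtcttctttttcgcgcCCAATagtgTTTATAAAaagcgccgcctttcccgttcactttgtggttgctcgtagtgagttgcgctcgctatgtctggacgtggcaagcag
HIST2H2AC: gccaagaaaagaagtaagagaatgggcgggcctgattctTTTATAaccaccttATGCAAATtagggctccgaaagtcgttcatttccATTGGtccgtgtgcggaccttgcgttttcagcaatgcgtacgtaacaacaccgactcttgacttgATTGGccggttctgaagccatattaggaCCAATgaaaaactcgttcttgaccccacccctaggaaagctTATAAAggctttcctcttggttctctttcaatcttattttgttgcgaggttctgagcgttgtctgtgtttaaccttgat
Among 65 promoter windows of 61 clustered genes, 33.8% held the octamer, 84.6% CCAAT and 67.7% TATAAA, against 1.77%, 34.6% and 11.5% of all 35116 windows of the table. By family, the octamer was found in 68.8% of H2A and 66.7% of H2B windows, in 6.67% of H3 windows and in none of the 6 H1 and 13 H4 windows. The 1 H3 window with it, of HIST1H3D, is the same stretch as the window of the H2A gene HIST1H2AD, and the other window of HIST1H3D has none. In 13 windows of 9 replacement genes, the shares were 7.69%, 69.2% and 30.8%.

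The 12 libraries held 15547851 to 18280415 reads on genes, recovered from FPKM (fragments per kilobase of gene, scaled to the fragments of the library) and gene length. A 1-kb gene with no read could still have up to 3 reads, which is 0.152 to 0.2 FPKM and covers counting error only. Mitochondrially encoded genes took 7.3% to 13.5% of the reads, most in treated library 1 of COV434. FOXL2, a transcription factor of granulosa cells, had 2 reads in the 6 libraries labelled KGN together and 3769 in the COV434 ones, and SMARCA2, a chromatin remodeler that COV434 cells are known to lack, had 13 and 9860. SMARCA4, its paralog, which COV434 cells are also known to lack, had 4185 and 13450. These markers go against the labels, so the libraries are called by their labels throughout and a direction given for a line is that of the labelled libraries. The 7 leukocyte, endothelial and epithelial markers summed to 0.228 to 0.439 FPKM in KGN and, in COV434, to 1.64 to 2.5 FPKM without and 0.463 to 0.844 FPKM with 77-39. The most reads were those of PTPRC, a leukocyte gene, at 281 in KGN, and CDH5, an endothelial gene, at 756 in COV434, while CD3E, of T cells, had none in any library.

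After 77-39, the balance of the classes shifted in the libraries labelled KGN. The clustered genes summed to 201, 217 and 209.6 FPKM in untreated and to 241, 251 and 291 FPKM in treated libraries. For the replacement genes, the sums were 748, 749.6 and 718 FPKM without and 452, 468 and 491 FPKM with 77-39. Neither class overlapped between untreated and treated libraries. In such bulk RNA, fewer cells with a transcript and less of it per cell cannot be told apart. Per library, the ratio of clustered to replacement FPKM was 0.268 to 0.292 without and 0.534 to 0.592 with 77-39. Single genes carried most of these changes in level. H1F0 made up 73.4% of the change of the replacement sum, and the clustered sum without HIST1H2BK overlapped between groups (125 to 129 FPKM without, 119 to 139.6 FPKM with 77-39). The replacement sum without H1F0 was still lower, with no overlap (402 to 428 FPKM without, 326 to 358 FPKM with 77-39). Without H1F0 and H1FX it was 341 to 364 and 302 to 328 FPKM.

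**Figure D1:**
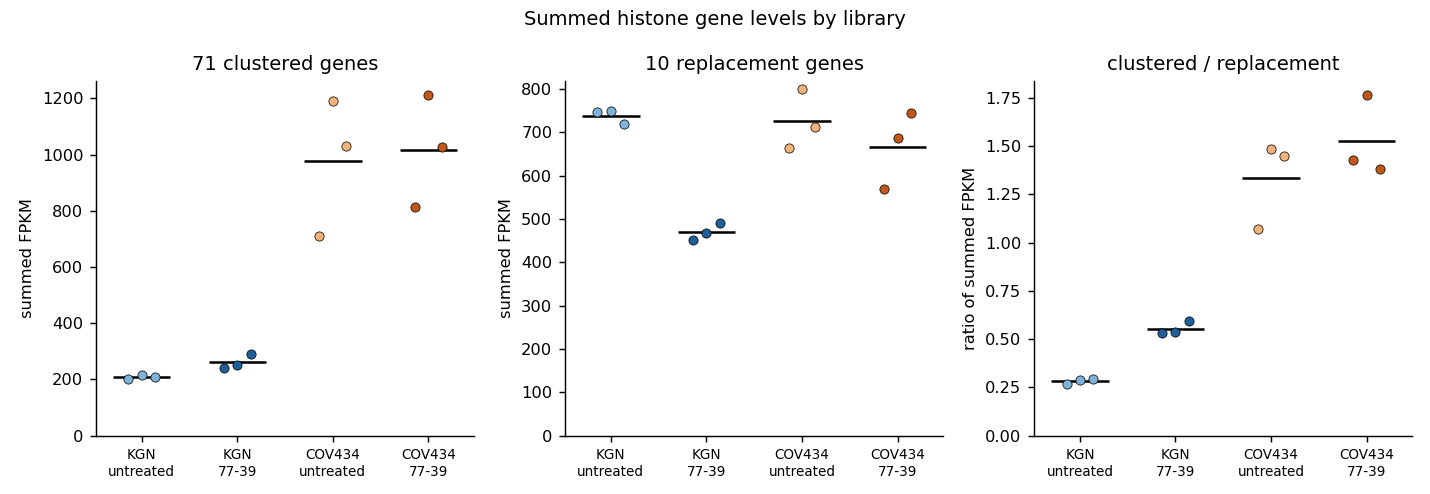
Summed FPKM of the 71 clustered genes (left) and the 10 replacement genes (middle), and the ratio of the sums (right), on linear axes from 0. Each point is 1 library and each line a group mean (n = 3). The replacement sum was 452 to 491 in treated against 718 to 749.6 in untreated libraries labelled KGN, while treated and untreated libraries labelled COV434 overlapped in all 3 panels.

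Changes of single genes were tested by limma on log2(FPKM + 1) over genes averaging 1 FPKM or more, with Benjamini-Hochberg adjustment over all genes tested, and a gene was called at an adjusted p-value under 0.05. Of 12671 genes tested in the libraries labelled KGN, 17.6% were called higher and 16.4% lower with 77-39. All 10 replacement genes were tested, and 6 fell and none rose. Of the 71 clustered genes 26 were tested, and 7 rose and 3 fell. This is 26.9% and 11.5% of those tested, against 17.6% and 16.4% of all genes, and 7 of the 26 reached 1 FPKM on average in only 1 of the groups. Among these 7 were the called genes HIST2H2AC and HIST1H2AJ (both lower) and HIST2H2BF (higher). They passed the filter only through the group where they were higher. The median log2 fold change was 0.19 for the clustered and -0.22 for the replacement genes tested, beside 0.01 for all genes. For the clustered genes this median was -0.02 when genes down to 0.1 FPKM were included. In a fit that shared 1 estimate of the spread over all 12 libraries, 3 clustered genes (HIST1H2AG and HIST1H4H higher, HIST2H2AC lower) and 3 replacement genes (H1F0, H1FX and H2AFX, all lower) were called, and the other genes called here were not.

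**Figure D2:**
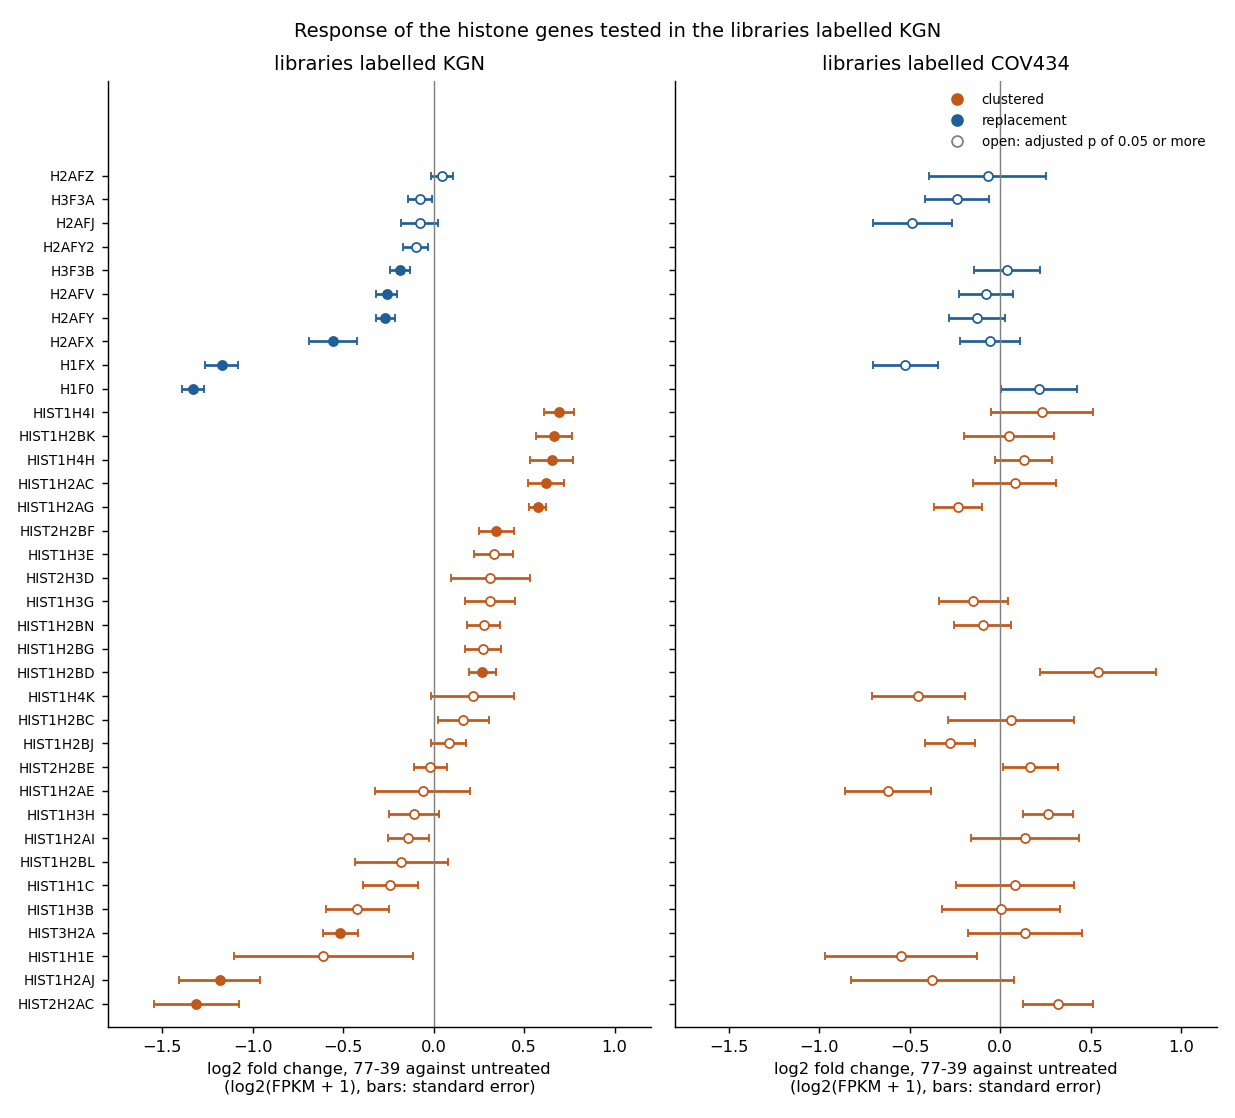
Log2 fold change with 77-39 (difference of mean log2(FPKM + 1), bars are standard errors from limma) of the 36 histone genes tested in the libraries labelled KGN (left) and of the same genes where tested in those labelled COV434 (right). Filled points have an adjusted p-value under 0.05. Replacement genes called in KGN lie left of 0 (6 of 10), clustered genes called lie on both sides (7 higher, 3 lower), and no point is filled on the right.

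Both replacement linker histone genes fell. H1F0 (chromosome 22, 37805093 to 37807436), which encodes H1.0, the linker histone typical of cells that divide slowly or have differentiated, had 346, 322 and 308 FPKM in untreated and 126, 126 and 133 FPKM in treated libraries labelled KGN. Its fall was 1.33 on the log2 scale (standard error 0.06, adjusted p = 9.13e-05). H1FX (chromosome 3, 129314771 to 129316277), which encodes the divergent linker histone H1.X, had 60.7, 63.2 and 57.6 FPKM without and 23.8, 25.2 and 30.2 FPKM with 77-39. Every treated library of both genes lay below every untreated one, and the fall of H1FX was 1.17 on the log2 scale (standard error 0.09, adjusted p = 0.000362). The antisense gene H1FX-AS1 overlaps 22.9% of H1FX, and reads of the pair cannot be told apart where the counting ignored the strand.

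HIST1H1C (chromosome 6, 26055787 to 26056428), the leading clustered linker histone gene, had 22.4, 18.2 and 16.7 FPKM without and 12.7, 18.2 and 17.4 FPKM with 77-39 in these libraries. The groups overlapped, and its log2 difference of -0.24 was not called (adjusted p = 0.263). Summed over genes, clustered H1 was 0.0548 to 0.0561 of the summed H1F0 and H1FX in untreated and 0.0899 to 0.122 in treated libraries labelled KGN.

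Replacement H2A genes changed less. H2AFX (chromosome 11, 119093854 to 119095467), whose product H2A.X is phosphorylated at DNA breaks, had 63.6, 81.4 and 80.0 FPKM without and 45.5, 46.7 and 60.0 FPKM with 77-39 in the libraries labelled KGN. The fall was 0.56 on the log2 scale (standard error 0.13, adjusted p = 0.0187). This call was lost without untreated library 2 or 3 or treated library 1 or 2 (adjusted p = 0.061, 0.0631, 0.0624 and 0.0667). H2AFV (chromosome 7, 44826791 to 44848083), which encodes 1 of the H2A.Z proteins, went from 30.9 to 33.7 FPKM down to 24.6 to 27.6 FPKM (log2 fold change -0.26, adjusted p = 0.0167). Its partner H2AFZ (chromosome 4, 99948086 to 99950388) had 105, 121 and 113 FPKM without and 116, 118 and 117 FPKM with 77-39, and its log2 difference of 0.05 was not called (adjusted p = 0.59). H2AFY (chromosome 5, 135333900 to 135399914), which encodes macroH2A1, a large variant found on silent chromatin, fell from 9.26 ± 0.237 to 7.53 ± 0.45 FPKM (SD, n = 3, limma adjusted p = 0.01), and genes on the other strand overlap 30.9% of it. For H2AFY2, the gene of macroH2A2, 8.56 ± 0.86 FPKM without and 7.9 ± 0.145 FPKM with 77-39 (SD, n = 3, limma adjusted p = 0.312) did not differ beyond the spread. H2AFJ had 11.8 ± 1.27 and 11.2 ± 1.37 FPKM (SD, n = 3, limma adjusted p = 0.593).

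The genes for the H3.3 protein, the variant laid down in active genes, differed little with 77-39. H3F3A (chromosome 1, 226061851 to 226072001) had 67.1, 66.1 and 62.6 FPKM without and 56.8, 62.6 and 66.4 FPKM with 77-39, with an adjusted p of 0.408. H3F3B (chromosome 17, 75776434 to 75785893) fell from 39.6, 36.2 and 37.0 to 31.8, 34.4 and 32.6 FPKM, a log2 change of -0.19 (standard error 0.05, adjusted p = 0.0344). The call for H3F3B did not hold without any 1 of the 6 libraries, where its adjusted p was 0.0521 to 0.108.

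**Figure D3:**
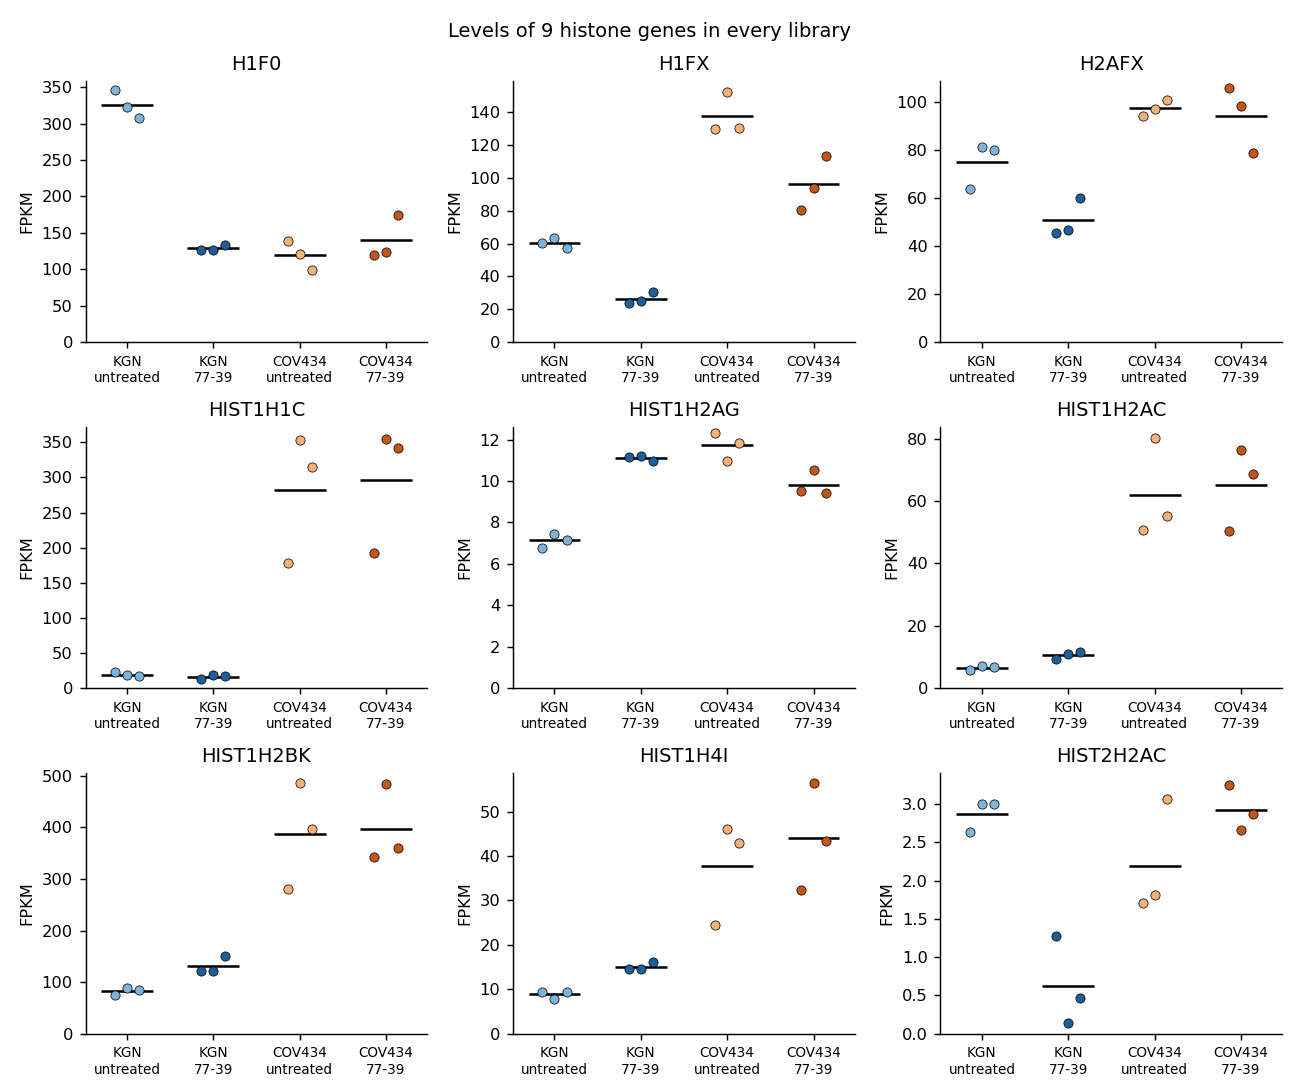
FPKM of 3 replacement genes (top row) and 6 clustered genes in every library, on linear axes from 0. Points are libraries and lines group means (n = 3). In the libraries labelled KGN the treated points lie apart from the untreated ones for all of these genes but HIST1H1C, while those labelled COV434 overlap for all but H1FX and HIST1H2AG, neither of which was called there. The share of all genes separated in this way is not given for either line.

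Core histone genes of the clusters moved in both directions. HIST1H2AG (chromosome 6, 27133042 to 27135291), an H2A gene, had 6.78, 7.44 and 7.16 FPKM in untreated and 11.1, 11.2 and 10.95 FPKM in treated libraries labelled KGN. Treated libraries were all above the untreated ones, and the log2 change was 0.58 (standard error 0.05, adjusted p = 0.000427). A stretch making up 4.36% of its model is also found elsewhere, among others in a gene of the signal recognition particle RNA family. HIST1H2AC (chromosome 6, 26124145 to 26139116) rose from 5.59, 7.09 and 6.82 to 9.35, 10.9 and 11.4 FPKM, a log2 change of 0.62 (standard error 0.10, adjusted p = 0.00422, or 0.0723 in the fit over all 12 libraries).

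Other H2A genes fell. HIST3H2A (chromosome 1, 228456979 to 228457873) had 18.7, 14.7 and 17.1 FPKM without and 12.6, 10.6 and 11.2 FPKM with 77-39, a log2 change of -0.52 (standard error 0.10, adjusted p = 0.00769, or 0.296 in the fit over all 12 libraries). HIST2H2AC (chromosome 1, 149886975 to 149887364) had 19, 20 and 23 reads in untreated and 9, 1 and 3 reads in treated libraries, or 2.88 ± 0.214 and 0.626 ± 0.581 FPKM (SD, n = 3). Its fall was 1.31 on the log2 scale (standard error 0.23, adjusted p = 0.00656), at a level where few reads decide the value. HIST1H2AJ (chromosome 6, 27814354 to 27814740) went from 19, 13 and 8 to 1, 3 and 1 reads and fell by 1.18 on the log2 scale (adjusted p = 0.00819, or 0.107 in the fit over all 12 libraries). It shares 83.7% of its stretches of 50 bases with HIST1H2AI, which had 4.76 ± 0.323 and 4.26 ± 0.841 FPKM (SD, n = 3, limma adjusted p = 0.372), so its value is uncertain.

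HIST1H2BK (chromosome 6, 27146418 to 27146798) was the most abundant clustered gene. It encodes an H2B, and its 75.9, 87.9 and 84.0 FPKM in untreated libraries labelled KGN rose to 122, 122 and 151 FPKM in treated ones. The groups did not overlap, and the log2 change was 0.66 (standard error 0.10, adjusted p = 0.00341, or 0.0692 in the fit over all 12 libraries). As 74.1% of its stretches of 50 bases also occur in H2BFS and other H2B genes, part of its reads could belong to those. HIST1H2BD went from 7.34 ± 0.551 to 9.07 ± 0.785 FPKM (SD, n = 3, limma adjusted p = 0.0323) and HIST2H2BF from 0.8 ± 0.0707 to 1.29 ± 0.132 FPKM (SD, n = 3, limma adjusted p = 0.0337). Leaving out 1 library ended the call for HIST1H2BD in 4 of 6 cases and for HIST2H2BF in 5, and without treated library 3 HIST2H2BF was below the filter. The H2B genes that face HIST1H2AG and HIST2H2AC were not called. HIST1H2BJ had 5.36 ± 0.34 and 5.77 ± 0.869 FPKM (SD, n = 3, limma adjusted p = 0.538), and HIST2H2BE 6.42 ± 0.725 and 6.32 ± 0.644 FPKM (SD, n = 3, limma adjusted p = 0.898).

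No clustered H3 gene was called in the libraries labelled KGN. The most abundant, HIST1H3H, had 6.06, 7.14 and 7.06 FPKM without and 4.77, 7.11 and 6.91 FPKM with 77-39 (adjusted p = 0.573), and the groups overlapped. Of the 3 H4 genes tested, 2 rose. HIST1H4I (chromosome 6, 27138588 to 27139881) had 9.5, 7.83 and 9.5 FPKM without and 14.5, 14.5 and 16.2 FPKM with 77-39, a log2 change of 0.69 (standard error 0.08, adjusted p = 0.00158, or 0.101 in the fit over all 12 libraries). HIST1H4H (chromosome 6, 26277609 to 26285638) stood at 1.88 ± 0.435 FPKM in untreated and 3.5 ± 0.352 FPKM in treated libraries (SD, n = 3), and its rise on the log2 scale was 0.65 (standard error 0.12, limma adjusted p = 0.00714).

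Split by the length of the gene model, the clustered genes of 1000 bases or more had 5 called higher and none lower among 11 tested, with a median log2 fold change of 0.33. Those under 1000 bases had 2 called higher and 3 lower among 15, with a median of -0.14. All genes tested had medians of 0.01 and 0.0027 in these length classes, with 19.0% called higher and 17.8% lower among the longer and 7.96% and 6.63% among the shorter. RNAs known to lack a poly(A) tail, a list of 20 of which 19 were in the table, summed to 394 to 1588 FPKM in untreated and 535 to 1482 FPKM in treated libraries labelled KGN. Nearly all of it was RN7SL2, the RNA of the signal recognition particle, the groups overlapped, and the part of such RNA in these results was not tested.

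The histone genes were then set beside genes that act on them. Of 31 S phase genes, 29 fell and none rose with 77-39 in the libraries labelled KGN, with a median log2 fold change of -0.79. MCM5 and MCM3, of the replicative helicase, fell by 1.15 and 0.92 on the log2 scale (adjusted p = 7.2e-05 and 9.13e-05). Of 25 genes for histone mRNA transcription, processing and decay, 1 rose (4%) and 7 fell (28%), with a median of -0.11. Over all genes tested, 17.6% rose and 16.4% fell, and the difference of these 2 lists from all genes was not tested. UPF1, a helicase of RNA decay, fell from 17.1 ± 0.135 to 13.5 ± 0.289 FPKM (SD, n = 3, limma adjusted p = 0.00185), and LSM11, of the U7 particle that trims histone pre-mRNA, from 3.45 ± 0.104 to 2.08 ± 0.287 FPKM (SD, n = 3, limma adjusted p = 0.00365). LSM10, of the same particle, rose from 19.9 ± 0.973 to 23.9 ± 2.09 FPKM (SD, n = 3, limma adjusted p = 0.0336). SLBP had 37.5 ± 0.741 and 35.1 ± 1.37 FPKM (SD, n = 3, limma adjusted p = 0.153), and NPAT, which activates the clustered genes, 2.65 ± 0.197 and 2.34 ± 0.0821 FPKM (SD, n = 3, limma adjusted p = 0.188).

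Of 31 histone chaperones and deposition factors 29 were tested, and 13 fell and 3 rose, with a median of -0.16. Over all genes tested, 16.4% fell and 17.6% rose, and the difference of the list from all genes was not tested. The lists are not separate, since MCM2, CHAF1A and CHAF1B of this list and SLBP of the preceding one are also S phase genes. ASF1B, which hands H3 and H4 to the replication machinery, fell from 21.6 ± 1.27 to 9.05 ± 0.635 FPKM (SD, n = 3), by 1.17 on the log2 scale (limma adjusted p = 0.000172). CHAF1A, the large subunit of the chromatin assembly factor CAF-1 and also on the S phase list, fell from 13.2 ± 0.667 to 6.99 ± 0.591 FPKM (SD, n = 3, limma adjusted p = 0.000427). HJURP, the chaperone of the centromeric H3 variant CENP-A, fell by 0.80 on the log2 scale, and CENPA itself fell by 0.68 (adjusted p = 0.00022 and 0.000436). ATRX, which places H3.3 in silent chromatin, rose by 0.30, and NAP1L1 and ASF1A rose by 0.23 and 0.20 (adjusted p = 0.0191, 0.0136 and 0.021). CENPA was the only one above the filter of 10 other histone variant genes listed, of which 9 were in the table.

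**Figure D4:**
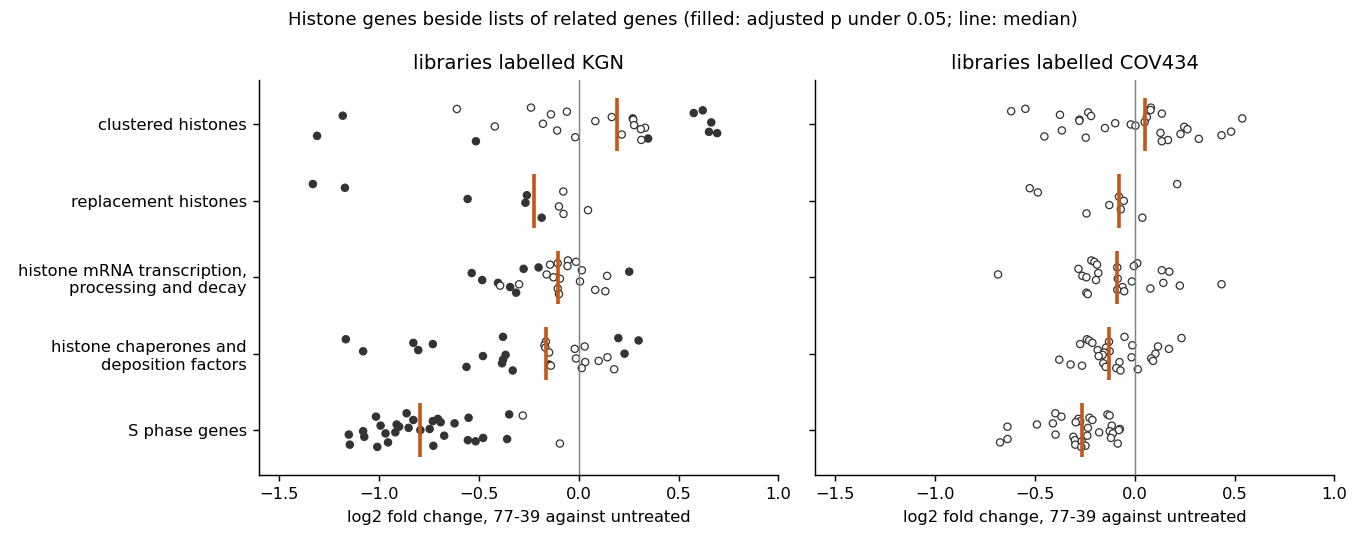
Log2 fold change with 77-39 on log2(FPKM + 1) for the clustered and replacement histone genes tested and for lists of related genes, in the libraries labelled KGN (left) and COV434 (right). Each point is a gene, filled at an adjusted p-value under 0.05, and the vertical line is the median of its list. On the left the S phase genes have a median of -0.79 and the clustered histone genes of 0.19, and on the right no gene is filled.

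No histone gene was called by limma with 77-39 in the libraries labelled COV434, where 0.00829% of 12060 genes were called higher and 0.0332% lower. Among the 29 clustered and 9 replacement genes tested, the lowest adjusted p over all alternatives was 0.0614, for H1FX. Clustered genes summed to 709.8, 1189 and 1031 FPKM without and 814, 1211 and 1026 FPKM with 77-39, and replacement genes to 664, 801 and 712 FPKM without and 569, 687 and 743 FPKM with 77-39. The groups overlapped for both classes. Median log2 fold changes were 0.05 for 29 clustered and -0.08 for 9 replacement genes tested, beside -0.02 for all genes. In both groups library 1 was the lowest of the 3 for 9 of the 10 replacement genes, ties included, and it had the highest mitochondrial share of its group (9.63% untreated, 13.5% treated). The part of that in these results was not tested.

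The study took genes at a p-value under a fixed threshold as differentially expressed, without saying whether it was adjusted. At an unadjusted p-value under 0.05 from limma, 3.52% of all genes were higher and 4.49% lower in the libraries labelled COV434. In those labelled KGN the shares were 23.7% and 21.6%. The study reported more such genes in COV434 than in KGN, the other way round. The histone genes under this threshold in the libraries labelled COV434 were H1FX and HIST1H2AE, which were lower, and HIST1H4D, which was higher. H1FX had 130.01, 153 and 131 FPKM without and 80.6, 94.0 and 114 FPKM with 77-39, with no overlap. Its log2 change was -0.53 (standard error 0.18), with an adjusted p from limma of 0.45 (unadjusted 0.0187). HIST1H2AE had 4.75 ± 1.62 and 2.66 ± 0.537 FPKM (SD, n = 3, limma adjusted p = 0.523), and HIST1H4D 1.21 ± 0.298 and 2.12 ± 0.675 FPKM (SD, n = 3, limma adjusted p = 0.62). With the library number as a block, 3 replacement genes (H1FX, H2AFJ and H3F3A, all lower) and 5 clustered genes (2 higher, 3 lower) were under this threshold, and none passed after adjustment. The smallest p in that fit was that of HIST1H2BD, with a log2 change of 0.54 (limma unadjusted p = 0.00364, adjusted p = 0.127). H1FX had an adjusted p of 0.154 there. By voom no clustered gene was under it. Without both number-1 libraries it was 1 replacement gene and 6 clustered genes, again none after adjustment. The shares of all genes given above are those of the main fit. None is given for these other fits, so whether their histone counts exceed the share of all genes cannot be told.

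Untreated and treated libraries did not overlap for HIST1H2AG and HIST1H2BJ (both lower) and HIST1H3H (higher) either, though none was called (adjusted p = 0.766, 0.706 and 0.731). With so few libraries per group, such separation can arise by chance. The share of all genes that were separated in this way is not given, so no response is read from it, for H1FX included. The groups overlapped for the abundant genes H1F0, HIST1H2BK and HIST1H1C. H1F0 had 138, 121 and 99.7 FPKM without and 119.8, 124 and 175 FPKM with 77-39 (adjusted p = 0.902). HIST1H2BK had 279.9, 486 and 398 FPKM without and 343, 485 and 360.5 FPKM with 77-39, and HIST1H1C 179, 353 and 314 FPKM without and 193, 355 and 342 FPKM with 77-39. Their adjusted p-values were 0.991 and 0.99, and in both genes library 1 was the lowest of each group. Of the 31 S phase genes, 6 were lower at an unadjusted p-value under 0.05 and none was called, with a median of -0.27. Of all genes tested there, 4.49% were lower at that threshold.

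The difference of the responses was tested as the interaction of line and treatment over all 12 libraries, where 1.85% of 13127 genes were called higher and 1.74% lower, in KGN minus COV434. Among 38 histone genes tested, 3 were called. H1F0 had a difference of -1.54 (standard error 0.22, adjusted p = 0.00506). For HIST1H2AG the difference was 0.81 (standard error 0.11, adjusted p = 0.00393), from 12.3, 10.98 and 11.8 FPKM without and 9.5, 10.53 and 9.42 FPKM with 77-39 in the libraries labelled COV434. HIST2H2AC had a difference of -1.63 (standard error 0.32, adjusted p = 0.0216), which did not hold (adjusted p = 0.05005 to 0.0682) without untreated library 1, 2 or 3 or treated library 3 of KGN. In the libraries labelled COV434 its reads were 11, 12 and 20 without and 19, 17 and 20 with 77-39. H1FX, lower with 77-39 in all treated libraries of both lines, had a difference of -0.65 that was not called (adjusted p = 0.0987). It was called without treated library 1 of COV434 and without both number-1 libraries, the lowest adjusted p over all alternatives being 0.027. With the library number as a block, HIST3H2A was called as well (difference -0.65, adjusted p = 0.0368). The median difference was -0.03 for clustered and -0.16 for replacement genes tested, beside 0.01 for all genes.

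Untreated libraries of the lines were far apart in the summed level of the clustered genes, but not of the replacement genes. They also serve as the controls of the comparisons above, so these values are not independent of those. Of 13098 genes tested, 32.6% were higher and 36.4% lower in KGN than in COV434. Among 25 clustered genes tested, 1 was higher and 18 were lower in the libraries labelled KGN, and among 10 replacement genes 2 were higher and 7 lower. The clustered sums lay apart (201 to 217 FPKM in KGN, 709.8 to 1189 FPKM in COV434). The replacement sums overlapped (718 to 749.6 FPKM in KGN, 664 to 801 FPKM in COV434). The ratio of clustered to replacement FPKM was 0.268 to 0.292 in KGN and 1.07 to 1.49 in COV434. The median log2 difference was -0.96 for clustered and -0.48 for replacement genes, beside -0.02 for all genes. Of the 25 clustered genes, 5 reached 1 FPKM on average in only 1 line, 4 of them in COV434 (HIST1H4C, HIST1H2BO, HIST1H2BN and HIST1H3G) and HIST1H2BL in KGN. All 5 were called, and they passed the filter only through the line where they were higher.

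**Figure D5:**
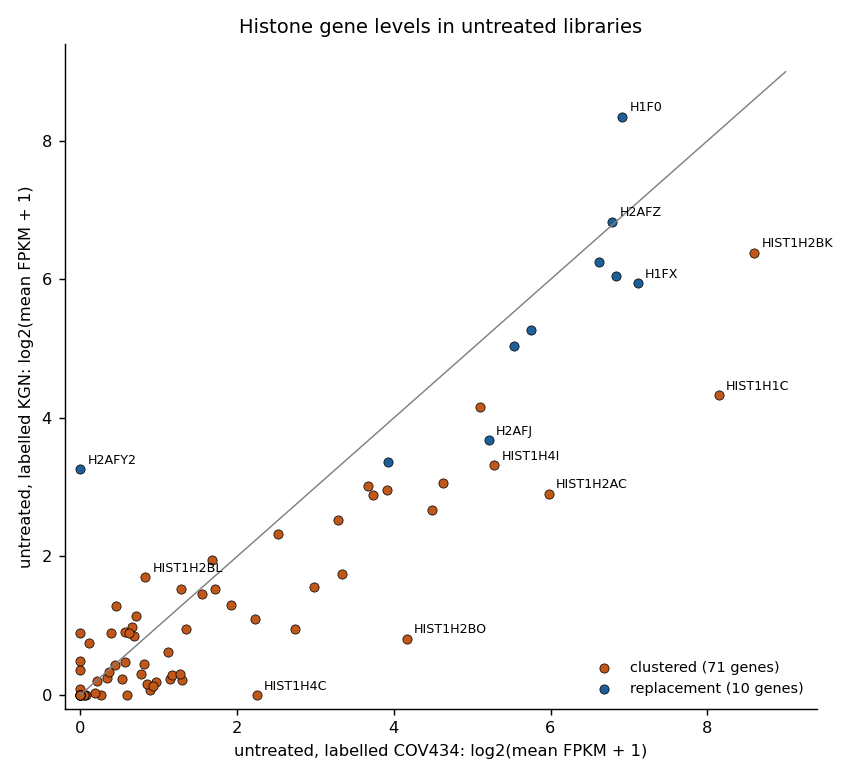
Mean FPKM of the 71 clustered and 10 replacement genes in untreated libraries, as log2(mean FPKM + 1), labelled COV434 on the x axis and KGN on the y axis (n = 3 each), with a line of equal levels. HIST1H1C (282 against 19.1 FPKM) and HIST1H2BK (388 against 82.6 FPKM) lie below the line, and H1F0 (119.6 against 325 FPKM) and H2AFY2 (0 against 8.56 FPKM) above it.

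The linker histone genes went opposite ways between the lines. HIST1H1C had 22.4, 18.2 and 16.7 FPKM in KGN against 179, 353 and 314 FPKM in COV434, a log2 difference of -3.76 (standard error 0.27, adjusted p = 2.26e-05). H1F0 was higher in KGN, at 325 ± 19.1 against 119.6 ± 19.4 FPKM (SD, n = 3), a log2 difference of 1.45 (limma adjusted p = 0.000126). H1FX was lower there, at 60.5 ± 2.81 against 138 ± 12.9 FPKM (SD, n = 3, limma adjusted p = 7.85e-05).

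Core histone genes of the clusters were mostly lower in KGN. HIST1H2BO (chromosome 6, 27893463 to 27893843), an H2B gene, had 0.566, 0.768 and 0.934 FPKM against 14.4, 19.5 and 16.9 FPKM, a log2 difference of -3.35 (standard error 0.13, adjusted p = 1.34e-06). HIST1H2AC had 6.5 ± 0.797 against 61.9 ± 15.9 FPKM (SD, n = 3), a log2 difference of -3.05 (limma adjusted p = 1.08e-05). HIST1H2BK, HIST1H4I and HIST1H2BJ differed by -2.18, -1.92 and -1.82 (adjusted p = 9.98e-05, 0.000391 and 4.09e-06). HIST1H4C had no read in any of the 6 libraries labelled KGN and 82 reads in the 3 untreated ones labelled COV434. Against the 3 reads that a count of 0 allows over the group, its level was at least 30.0-fold higher in COV434. HIST1H3G, HIST1H3B and HIST1H3H, all H3 genes, differed by -1.79, -1.52 and -0.96 (adjusted p = 4.84e-05, 0.00259 and 0.000117). The remaining clustered genes called lower, HIST1H2BD, HIST1H4K, HIST1H2BH, HIST3H2A, HIST2H2BE, HIST1H2AI, HIST1H2AG and HIST1H2BN, differed by -1.49 to -0.41, and HIST1H4K shares 100% of its stretches of 50 bases with HIST1H4J. The call of HIST3H2A was lost without any 1 of the untreated libraries but library 1 of COV434 (adjusted p = 0.0618 to 0.0977), and that of HIST1H2AI without any 1 of the KGN libraries (adjusted p = 0.0618 to 0.0889). HIST1H2BL, at 2.24 ± 0.612 against 0.776 ± 0.263 FPKM (SD, n = 3, limma adjusted p = 0.00432), was the 1 clustered gene called higher among those tested. Clustered genes under the filter were not tested and lay on both sides. HIST1H3E, an H3 gene, had 128 reads in KGN and none in COV434, at least 38.7-fold higher in KGN by the same bound. HIST1H4D had 0, 1 and 2 reads in KGN against 6, 5 and 8 in COV434.

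Among the replacement genes, H2AFY2 separated the lines. It had 9.32, 7.63 and 8.75 FPKM in untreated libraries labelled KGN and no read in those labelled COV434, at least 284-fold by the same bound, with 1 read in a treated one. H2AFJ was lower in KGN by 1.53 on the log2 scale (11.8 ± 1.27 against 36.0 ± 4.96 FPKM, SD, n = 3, limma adjusted p = 5.75e-05), and H3F3A by 0.78 (adjusted p = 0.00166). H2AFY, H2AFV, H3F3B and H2AFX differed by -0.56, -0.49, -0.47 and -0.38 (adjusted p = 0.00116, 0.00339, 0.0153 and 0.0299). The call of H2AFX was lost without untreated library 1 or 3 of KGN or 2 or 3 of COV434 (adjusted p = 0.0533 to 0.0927), and that of H3F3B without untreated library 2 or 3 of KGN or 3 of COV434 (adjusted p = 0.0556 to 0.0603). Both were also lost by voom, and H2AFZ, at 113 ± 8.22 and 109 ± 33.5 FPKM (SD, n = 3), did not differ beyond the spread (limma adjusted p = 0.732).

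S phase genes and the summed RNAs without a poly(A) tail also differed between the untreated libraries, in opposite directions. Of 31 S phase genes, 24 were lower in KGN and none higher, with a median of -1.13. Of all genes tested, 36.4% were lower and 32.6% higher. RNAs without a poly(A) tail summed to 394, 1248 and 1588 FPKM in untreated libraries labelled KGN and to 11.05, 13.1 and 8.31 FPKM in those labelled COV434. Nearly all of the KGN sum was RN7SL2, while RNU5A-1, a spliceosomal RNA, was lower in KGN (log2 difference -1.52, limma adjusted p = 0.00502). It had 0, 0.505 and 0.876 FPKM in KGN against 2.08, 5.07 and 2.58 FPKM in COV434. This short RNA passed the filter only through COV434, at a level where few reads decide the value. Clustered genes of 1000 bases or more had a median of -0.96 and those under 1000 bases of -1.15, where all genes tested had -0.05 and 0.24. The part of S phase and of RNA without a poly(A) tail in these differences was not tested.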

How the data were processed

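RNA of untreated and 77-39-treated cells of both lines was extracted with TRIzol, made into libraries with an Illumina TruSeq RNA kit per the labels, and sequenced on a NovaSeq instrument. The authors deposited FPKM per gene. Per the labels, HISAT2 2.0.5 was used. The processing notes name mouse builds and the extraction text speaks of retinas, while genes and coordinates are human and match GENCODE release 29 on GRCh38 for 58724 of 58735 genes. The counter and the treatment of strand and of reads matching several genes are not given in the sources used here. Near-identical histone genes can therefore gain or lose reads, and RNA without a poly(A) tail can be under-represented where a poly(A)-selecting kit was used.

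FPKM times gene length fell on whole reads in 100% of values (tolerance 0.05). limma 3.58.1 (R 4.3.3; lmFit, eBayes with trend, two-sided) was run on log2(FPKM + 1) for genes averaging 1 FPKM or more over the libraries fitted, with Benjamini-Hochberg adjustment. A fold change on this scale understates the change of low genes. The fits were tested on simulated data. Because FPKM are not counts, voom of limma on the recovered reads served only as an alternative. Also tried were no filter, a filter at 0.1 FPKM, a pseudocount of 0.1, median-ratio scaling, protein-coding genes only, a length trend removed, a block for the library number, a fit over all 12 libraries, and leaving out each library. Leaving out both number-1 libraries of COV434 was added after seeing the data. In the libraries labelled COV434, same-numbered treated and untreated libraries deviated together (correlations across genes 0.4, 0.474 and 0.166, where genes are not independent replicates). Some values of the blocked fit are therefore given for them. The main fit did not pair the libraries, and all other values for COV434, with its figures, are from that fit unless another is named. In those labelled KGN they were -0.019 to -0.0164, and no pairing was assumed.

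Named genes were the 10 replacement genes, the 10 clustered genes of highest mean FPKM, up to 10 further clustered genes called in each comparison (or 5 at an unadjusted p-value under 0.05 where none was called), and, of the lists, up to 4 called genes per direction with the smallest p. SLBP, NPAT, ASF1B, CHAF1A, CENPA, FOXL2, SMARCA4 and SMARCA2 were named in any case, and HIST1H3E for having no read in COV434. The members and the gene lists were chosen with earlier results of these data known. Tables were made with pandas 2.3.3 and numpy 2.4.6 in Python 3.11.15.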

Additional observations from a re-analysis of the deposited data

Results flagged for a closer look

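The response to 77-39 differed between the libraries labelled KGN and COV434, by limma's test of the interaction, for 3 of the 38 histone genes tested. Over all 13127 genes tested, 1.85% were called higher and 1.74% lower. The difference (KGN minus COV434, log2) was 0.81 for HIST1H2AG (adjusted p = 0.00393), -1.54 for H1F0 (adjusted p = 0.00506) and -1.63 for HIST2H2AC (adjusted p = 0.0216). In the libraries labelled KGN every treated library lay on the same side of every untreated one for all 3 genes. The share of all genes separated in this way is not given, so no response is read from the separation. HIST2H2AC rests on 1 to 23 reads per library there, and in the comparison within KGN it passed the filter only through the untreated group.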

How the results depend on the processing

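In the libraries labelled KGN, the fit over all 12 libraries called 3 clustered and 3 replacement genes in place of 10 and 6, and leaving out 1 library gave 7 to 10 and 4 to 5. The clustered median there was 0.28 with a pseudocount of 0.1, -0.025 with a filter at 0.1 FPKM, -0.021 with none, 0.29 by voom, -0.00898 over all 12 libraries and 0.11 to 0.23 without 1 library, and the replacement median was -0.25 to -0.19 without 1 library. For COV434, clustered genes under an unadjusted p-value of 0.05 numbered 1 with a pseudocount of 0.1 or a length trend removed, 0 by voom, 5 with the replicate block, 6 without both number-1 libraries and 0 to 4 without 1 library. Replacement genes under it numbered 2 with protein-coding genes only, a length trend removed or all 12 libraries, 3 with the replicate block with or without a length trend, and 0 to 2 without 1 library. The medians without 1 library were -0.17 to 0.18 and -0.21 to -0.04. No share over all genes is given beside the counts of these alternatives.

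For the difference, 1 clustered gene was called with a pseudocount of 0.1 or no filter, 1 to 2 without 1 library, and the clustered median was 0.16 without both number-1 libraries and -0.21 to 0.13 without 1 library. Replacement genes called numbered 2 without both number-1 libraries and 1 to 2 without 1 library. Between untreated libraries, 31 clustered genes were called with a filter at 0.1 FPKM and 17 to 21 without 1 library. The clustered median was -0.49 with that filter, -0.38 with none and -0.996 to -0.88 without 1 library. The replacement genes had a median of -0.29 by voom, where the median of all genes moved by 0.20, and of -0.57 to -0.43 without 1 library, when 7 to 9 were called.

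Signs reversed only for genes not called. Without 1 library, the log2 change was -0.15 to 0.013 for H2AFJ (0.0014 without untreated library 1) and -0.0062 to 0.098 for H2AFZ in KGN. In COV434 it was -0.14 to 0.068 for H2AFX, -0.31 to 0.25 for H2AFZ (0.14 without untreated library 2) and -0.080 to 0.15 for H3F3B (-0.068 without treated library 3). For H2AFZ it was 0.0075 without both number-1 libraries. The replicate block ended the KGN calls of HIST1H2BD, HIST2H2BF and H3F3B (adjusted p = 0.0647, 0.0833 and 0.0932) and the untreated call of H2AFX (adjusted p = 0.0572), where the numbers do not pair the libraries. The causes were not tested. Of the 71 clustered genes, 43 averaged under 1 FPKM over the 12 libraries, and what size of change this depth can detect in them was not tested.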
